A study of Arabidopsis thaliana with 15 samples.

Results

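Wild-type seedlings of Arabidopsis thaliana were sequenced as 2 separate sets of 3 libraries, Col-0_1 and Col-0_2, and the sets are compared here with each other, as Col-0_2 against Col-0_1. Both sets carry the same labels: ecotype Col-0, genotype wild type, no treatment, 11 days of age, whole seedlings. The plates held Murashige and Skoog medium at 22 °C, with 16 h of light and 8 h of dark. The 6 libraries are 6 of the 15 in the series, and the genes compared are the 23991 of 32548 whose mean reached 1 normalised read in at least 1 of the sets. Of the other genes, 7296 were at 0 in all 6 libraries and 1261 stayed above 0 but under that mean. Whether a listed 0 means no transcript or a gene left uncounted was not tested. The other 9 libraries, in groups of 3, come from mutants in the same ecotype and at the same age. Their genotypes are wrky7-/-11-/-17-/-21-/-39-/- (wrky-qm), the same with wrky15+/- (wrky-qm_15_hz), and obe1-/- obe2-/- (obe1-2). The series asks how WRKY transcription factors and PHD-finger proteins hold stress-responsive genes down, so the levels of stress genes in the wild type are the baseline of that question. The labels name no harvest hour, plate, batch or sequencing run, and do not tie a wild-type set to a mutant. They do not say whether the libraries of a set came from separate plants or plates. The p-values here therefore measure only the spread between libraries within the 5 groups, mutants included.

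Seedling transcripts are known to move fast with handling, light, time of day and nutrition, with no change of genotype. Touch, wounding, chilling and microbial patterns share a first wave of transcripts for ERF, ZAT and WRKY transcription factors, calmodulin-like calcium sensors and RNA-decay proteins. The circadian clock runs in the background of all of these: the MYB factors CCA1 and LHY peak around dawn and repress evening genes such as TOC1, GI and LUX. Anthocyanins and glucosinolates are secondary metabolites whose genes follow light, sugar and nutrient supply in this species.

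The wild-type libraries summed to between 44049333 and 44633457 normalised reads, and the 10 highest genes took 6.91% to 7.32% of each. Between 23095 and 24511 genes were above 0. The median coefficient of variation between the 3 libraries of a set was 3.79% in Col-0_1 and 3.63% in Col-0_2 for genes with a mean of 1000 or more. It was 8.16% and 7.79% between 100 and 1000, and 25.4% and 23.8% between 10 and 100, so differences in low genes are less firmly measured. In each Col-0_1 library 8177 genes were stored as 2.8e-17 and between 1216 and 1276 as exact 0, whereas no Col-0_2 library held a 2.8e-17. The wrky-qm libraries stored 7949 genes as 2.8e-17, and the wrky-qm_15_hz and obe1-2 libraries none. The Col-0_2 libraries also differed among themselves: replicates 1 and 3 held 9230 and 9219 exact zeros, while replicate 2 held 8037 and had 1263 values between 1e-06 and 0.5, which are counted in its 24511 genes above 0. The sets therefore differ in how the table was written, and whatever step lies behind the storage cannot be told apart from the set in any result below.

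Col-0_2 differed from Col-0_1 in 5879 of 23991 genes (24.5%) at an adjusted p under 0.05 (limma-trend, 3 libraries against 3, Benjamini-Hochberg adjustment over all genes). Of these, 3458 genes (14.4%) were higher in Col-0_2 and 2421 (10.1%) were lower. Most of the differences were small. The median absolute log2 difference was 0.35 among the called genes and 0.20 over all genes, and the median signed difference was 0.00096. At least a 2-fold difference was found in 759 called genes (3.16%), 560 of them higher in Col-0_2 (2.33%) and 199 lower (0.829%), and at least a 4-fold difference in 181 and 71. Where a set mean of 50 was required, 335 were at least 2-fold higher and 94 at least 2-fold lower. Without Col-0_2 replicate 2, 4901 genes differed, 2926 higher and 1975 lower. All 3 libraries of a set lay beyond all 3 of the other in 9572 genes (39.9%). Log2 differences are given ± SE after adding 1 to each value, which shrinks those of low genes. They are differences between mean logs, so where the libraries of a low set vary widely they can exceed the log2 ratio of the set means. Each SE and p-value comes from the spread within all 5 groups, mutants included, and not from the wild-type libraries alone.

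**Figure D1:**
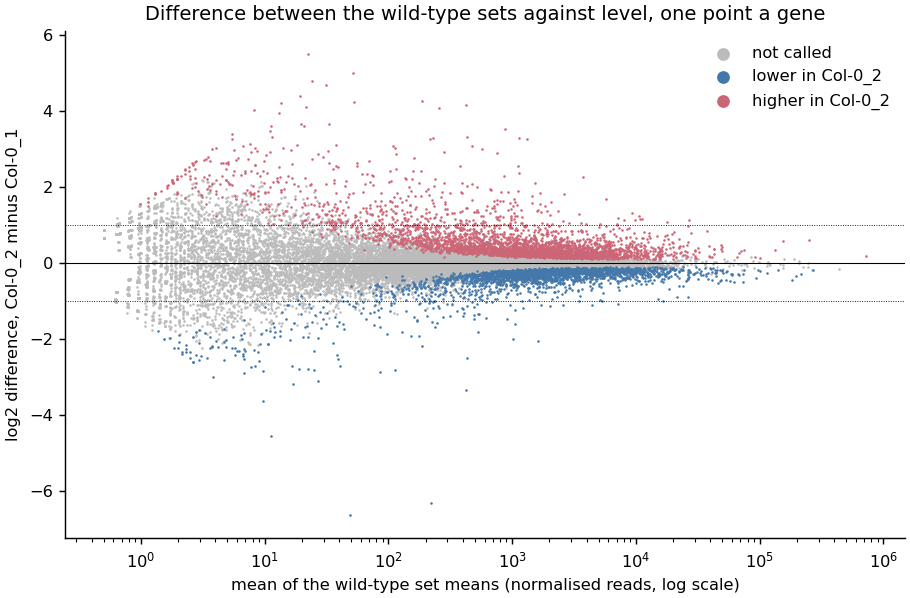
Log2 difference between the wild-type sets (Col-0_2 minus Col-0_1, y axis) against the mean of the set means in normalised reads (x axis, log scale), with 1 point for each of 23991 genes and dotted lines at a 2-fold difference. The called genes spread to both sides of 0, with more points above the upper dotted line (560 called genes) than below the lower one (199), or 335 against 94 where only genes with a mean of at least 50 are tested.

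Over 18780 genes with a mean of at least 50, the median absolute log2 difference between 2 libraries was 0.091 to 0.10 within Col-0_1 and 0.088 to 0.096 within Col-0_2. Between a Col-0_1 and a Col-0_2 library it was 0.18 to 0.19, above every pair within a set. A Col-0_1 library and a wrky-qm library differed by 0.26 in all 9 pairs, so the distance between the wild-type sets was smaller than the distance between Col-0_1 and this mutant. The distances from Col-0_2 were 0.26 to 0.27 to wrky-qm, 0.43 to 0.44 to wrky-qm_15_hz and 0.57 to 0.58 to obe1-2. From Col-0_1 they were larger for the last 2 of these mutants, at 0.50 to 0.53 to wrky-qm_15_hz and 0.65 to 0.67 to obe1-2. The share of genes called depended on level and length. Among genes with a mean of 10000 or more, 26.9% were called higher and 35.7% lower, while in those under 10 the shares were 3.91% and 1.97%. Genes shorter than 1000 bases had a median log2 difference of 0.11, and genes of 5000 bases or more one of -0.044.

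Members of the gene lists are counted as higher or lower only where they passed the test, and are termed called. Over all genes tested 14.4% were called higher and 10.1% lower, and every list count below stands beside these shares. Lists of rapid stress responses, ethylene, low oxygen, sugar starvation and immunity held more members higher than lower in Col-0_2. Lists of the morning clock, anthocyanins, aliphatic glucosinolates, photosynthesis and cell division held more members lower than higher. Lists of root hairs, endodermis and stomata had few called members in either direction.

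**Figure D2:**
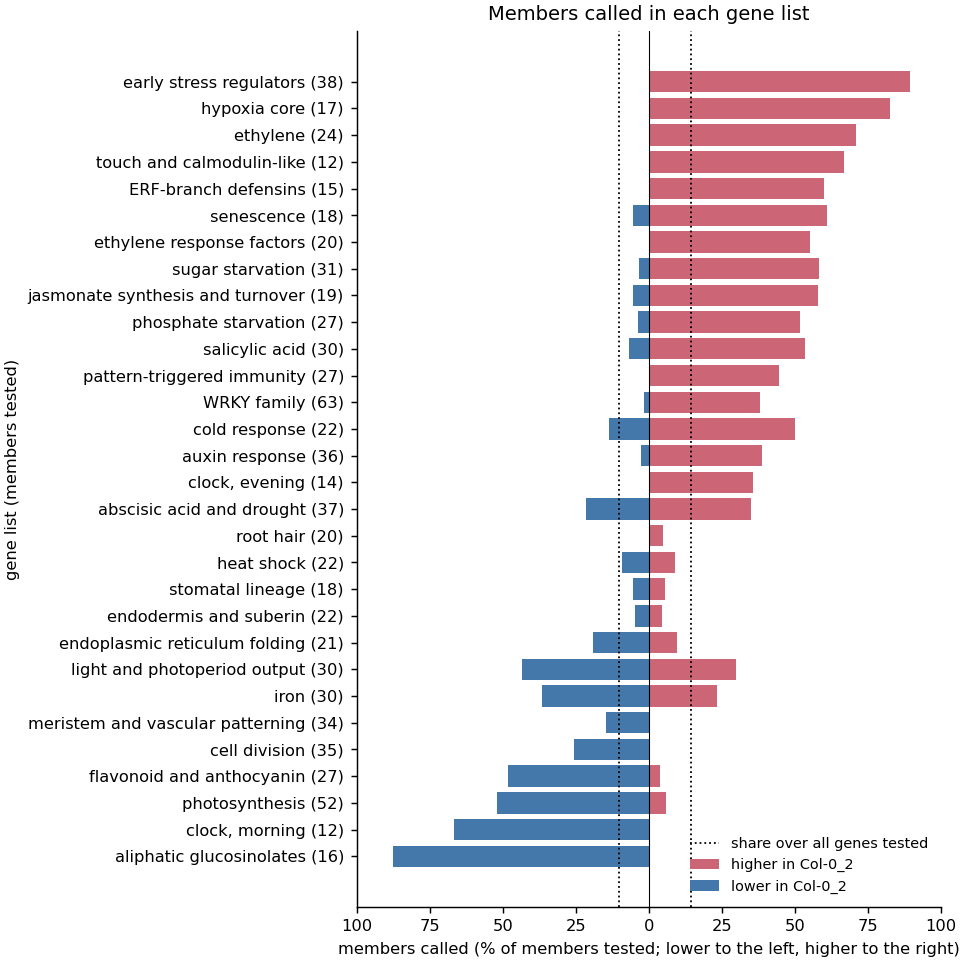
Share of the tested members of 30 gene lists called higher (right, red) or lower (left, blue) in Col-0_2, in percent of the members tested (number in brackets), with dotted lines at the share over all genes tested (14.4% and 10.1%). The early stress regulators reach 89.5% higher with none lower, and the aliphatic glucosinolate genes stand at the other end with 14 of 16 lower. The lists were chosen with earlier results of these data known.

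Early stress regulators had the largest share of higher members of all lists. Lists and members were chosen with earlier results of these data known, so this ranking is a description and not a test. Of 38 tested members, 34 were higher in Col-0_2 and none lower, with a median log2 difference of 1.16 beside 0.00096 over all genes, and 21 were at least 2-fold higher. CAF1A (AT3G44260) encodes a deadenylase that shortens poly(A) tails and is induced within minutes of stress. It stood at 194, 213 and 221 in Col-0_1 and 2085, 2096 and 1996 in Col-0_2. All Col-0_2 libraries were thus several times above all Col-0_1 libraries (log2 difference 3.29 ± 0.069, adjusted p = 8.37e-19, limma). ZAT10, a C2H2 zinc-finger repressor of stress responses, held 126, 94.7 and 110.4 in Col-0_1 and 651, 581 and 715 in Col-0_2 (2.55 ± 0.096, adjusted p = 1.06e-14, limma). The sets did not overlap for ZAT10 either, nor for the next genes.

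WRKY40 (AT1G80840), a WRKY factor induced by microbial patterns and abscisic acid, held 41.8, 35.9 and 43.0 in Col-0_1 and 259, 319 and 266 in Col-0_2. Its log2 difference was 2.77 ± 0.11 (adjusted p = 4.27e-14, limma). WRKY33, which activates camalexin synthesis, differed by 1.19 ± 0.05. ERF104 (AT5G61600), an ethylene response factor released by a MAP kinase in flagellin signalling, held 274, 258 and 339 in Col-0_1 and 1398, 1506 and 1363 in Col-0_2 and differed by 2.296 ± 0.082. The related factors ERF6, ERF5 and ERF13 differed by 2.08 ± 0.12, 1.65 ± 0.12 and 2.68 ± 0.21. The RAV-type factors TEM1 and RAV1, repressors of flowering and growth, rose by 2.116 ± 0.058 and 1.5 ± 0.062, and their relative RAV2 (AT1G68840), outside the list, held 1172, 1141 and 1163 in Col-0_1 and 4007, 4113 and 4137 in Col-0_2 (1.82 ± 0.042). SZF1, a salt-induced tandem zinc-finger protein, held 658, 687 and 634 in Col-0_1 and 2254, 2188 and 2253 in Col-0_2 and differed by 1.76 ± 0.046. The 4 members without a call were DREB19 (1.17), ZAT11 (0.34), PP2C5 (0.039) and WRKY6 (-0.011). ERF105 was at 0 in all 6 wild-type libraries and was not tested.

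The mutant means place the wild-type levels within the range of the series, as values without a test. CAF1A averaged 1256 in wrky-qm, 1156 in obe1-2 and 2476 in wrky-qm_15_hz, and the Col-0_2 mean lay above 2 of the 3 mutant means. ZAT10 averaged 1815 in wrky-qm, 2189 in obe1-2 and 2679 in wrky-qm_15_hz, all above both wild-type sets. TEM1 averaged 1323 in wrky-qm, 10872 in obe1-2 and 5861 in wrky-qm_15_hz, and all Col-0_2 libraries lay above the mean of wrky-qm.

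**Figure D3:**
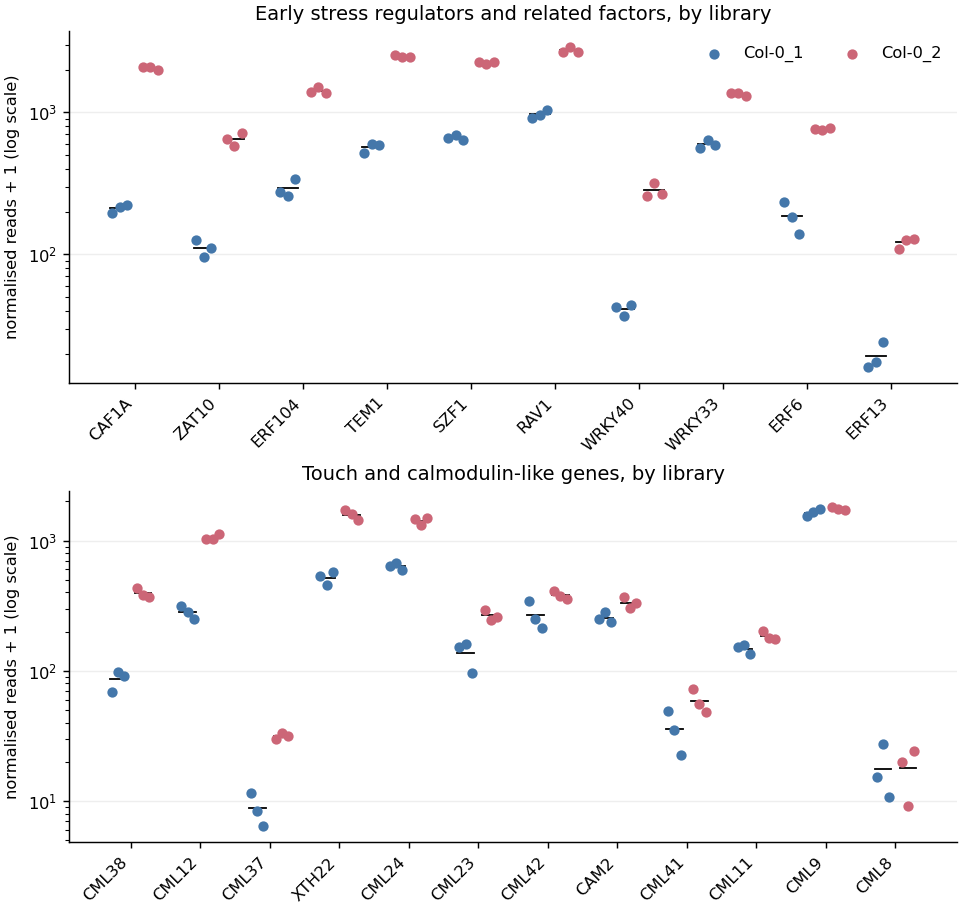
Normalised reads + 1 (y axis, log scale) in each wild-type library for 10 early stress regulators and related factors (top) and for the 12 touch and calmodulin-like genes (bottom), Col-0_1 in blue and Col-0_2 in red, with a black line at each set's mean. For CAF1A the libraries step from about 200 to about 2000 reads between the sets, while those of CML8 and CML9 overlap.

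Touch and calmodulin-like genes were higher in Col-0_2 or were not called. The list joins the TCH genes, first found as transcripts induced by touching or spraying plants, with other genes of the calmodulin-like family of calcium sensors. Of 12 tested members, 8 were higher in Col-0_2 and none lower, with a median log2 difference of 0.89. CML12 (AT2G41100), also named TCH3, held 315, 279.8 and 248 in Col-0_1 and 1021, 1030.4 and 1132 in Col-0_2 (1.92 ± 0.078, adjusted p = 3.44e-14, limma). XTH22 (AT5G57560), the xyloglucan hydrolase TCH4, held 533, 455 and 570.0 in Col-0_1 and 1717, 1599 and 1443 in Col-0_2 (1.61 ± 0.07). CML24 (AT5G37770), also named TCH2, held 639, 674 and 589.6 in Col-0_1 and 1473, 1311 and 1482 in Col-0_2 (1.16 ± 0.061). Each Col-0_2 library of these classical touch genes exceeded each Col-0_1 library.

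The highest difference in the touch list was that of CML38 (AT1G76650), a calmodulin-like protein of stress granules, at 68.1, 97.3 and 89.5 in Col-0_1 and 434, 379 and 368 in Col-0_2 (2.21 ± 0.13). CML37 was low, at 10.5, 7.37 and 5.37 in Col-0_1 and 29.0, 32.5 and 30.5 in Col-0_2, and differed by 1.90 ± 0.28. CML23, CML42 and CAM2, which encodes a calmodulin, rose by 0.996 ± 0.18, 0.53 ± 0.13 and 0.39 ± 0.11. The members without a call were CML41 (0.78 ± 0.30, adjusted p = 0.0651), CML11 (0.34 ± 0.14, adjusted p = 0.0906), CML9 (0.10 ± 0.064, adjusted p = 0.282) and CML8 (0.0027 ± 0.40, adjusted p = 0.998), all from the limma fit. The libraries of the sets overlapped for CML41, CML9 and CML8. CAM2 (AT2G41110) was not called without Col-0_1 replicate 3 or Col-0_2 replicate 1 (0.32 to 0.34, adjusted p from 0.0531 to 0.0658, limma), and CML41 (AT3G50770) was called without Col-0_1 replicate 1 (1.04, adjusted p = 0.0204, limma).

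Called ethylene genes, from synthesis to response, were all higher in Col-0_2. Of 24 tested members, 17 were higher in Col-0_2, none lower, and the median log2 difference was 0.57. The 17 include AT2G05710 (0.26), matched by the symbol ACO3, which is an aconitase gene and not the ACC oxidase of that symbol. ACC synthases make the ethylene precursor. ACS6 (AT4G11280), the stress-activated member, held 656, 607 and 630.3 in Col-0_1 and 1451, 1515 and 1492 in Col-0_2 (1.24 ± 0.07, adjusted p = 9.25e-12, limma), and the low-level ACS11, ACS8, ACS7 and ACS4 differed by 2.15 ± 0.28, 1.60 ± 0.24, 1.46 ± 0.18 and 1.36 ± 0.26. ACS2 (0.50) and ACS5 (0.26) were not called. The ACC oxidase ACO4, which catalyses the last step, differed by 0.63 ± 0.047. Among responders, the growth regulator ARGOS-LIKE differed by 1.102 ± 0.083, and the ERF factor EBP (AT3G16770) held 6139, 6956 and 7023 in Col-0_1 and 15061, 15045 and 14548 in Col-0_2 (1.15 ± 0.053). Among signalling genes the kinase CTR1 and the factor EIN3 rose by 0.47 ± 0.04 and 0.38 ± 0.035, while the receptor ETR1 (0.024) and the F-box gene EBF1 (-0.14) were not called. In the family of genes named ERF, 11 of 20 tested were higher and none lower.

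Defensin genes of the ERF branch of jasmonate and ethylene defence were higher in Col-0_2 by some of the largest ratios of the comparison. ERF1 and ORA59 are the factors that switch on plant defensin genes, and they bind the GCC box. ORA59 (AT1G06160) held 57.0, 63.0 and 53.7 in Col-0_1 and 259, 234 and 209 in Col-0_2 (1.99 ± 0.19, adjusted p = 4.11e-08, limma). PDF1.2 (AT5G44420), the defensin used as marker of this branch, held 38.8, 49.1 and 43.8 in Col-0_1 and 803, 792 and 810.3 in Col-0_2 (4.17 ± 0.34, adjusted p = 3.14e-09, limma). PDF1.3 (AT2G26010) held 136, 176 and 113 in Col-0_1 and 1458, 1701 and 1688 in Col-0_2 (3.52 ± 0.30). PDF1.2c (AT5G44430) held 33.4, 22.9 and 28.3 in Col-0_1 and 541, 443 and 485 in Col-0_2 (4.08 ± 0.45). In all 3 defensins every Col-0_2 library stood several times above every Col-0_1 library.

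PDF1.2b (AT2G26020) was low, at 0, 0 and 11.3 in Col-0_1 and 55.9, 71.1 and 50.7 in Col-0_2 (4.69 ± 0.74). The coding sequences of PDF1.2, PDF1.2b, PDF1.2c and PDF1.3 are all 243 bases long and differ from each other at 13 to 21 of them (91.4% to 94.7% identity), so reads may have been shared among them and the split between copies is uncertain. Of the 15 tested members of the list, 9 were higher in Col-0_2 and none lower, with a median log2 difference of 0.97. The remaining calls were ERF1 (1.497 ± 0.44), which was low at 4.72, 1.71 and 11.2 in Col-0_1 and 14.98, 21.3 and 10.9 in Col-0_2 and whose sets overlapped, the defensin PDF2.2 (0.40 ± 0.059), the chitin-binding HEL, also named PR4 (1.31 ± 0.066), and the chitinase HCHIB, also named PR3 (0.60 ± 0.055). The members without a call were PDF1.1 (0.97), PDF1.4 (0.57), PDF1.5 (-1.26), PDF2.1 (-0.15), PDF2.3 (-0.094) and the thionin THI2.2 (0.049). ERF1 (AT3G23240) was not called without Col-0_1 replicate 2 or Col-0_2 replicate 2 (0.96 to 1.27, adjusted p from 0.0739 to 0.104, limma). PDF1.2 averaged 0.636 in wrky-qm, 23.7 in obe1-2 and 498 in wrky-qm_15_hz, all below the 3 Col-0_2 libraries.

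The GCC box (AGCCGCC, either strand) was looked for in the 250 bases before the annotated start of each protein-coding gene in assembly TAIR10.1. It was present in 0.559% of 22735 such windows and in 3 of the 15 ERF-branch genes. The 3 windows are printed 5′ to 3′ on the gene's strand, with the box in capitals, because they hold 2 defensins that rose and 1 that was not called. They lie at chr5:17907639-17907888, minus strand (PDF1.2), chr2:11088873-11089122, plus strand (PDF1.2b) and chr1:20516666-20516915, plus strand (PDF1.5).
PDF1.2: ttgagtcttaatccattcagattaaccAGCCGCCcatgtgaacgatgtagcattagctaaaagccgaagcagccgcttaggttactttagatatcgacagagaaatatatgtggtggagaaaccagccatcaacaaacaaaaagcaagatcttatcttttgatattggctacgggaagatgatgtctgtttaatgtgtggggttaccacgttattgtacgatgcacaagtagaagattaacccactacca
PDF1.2b: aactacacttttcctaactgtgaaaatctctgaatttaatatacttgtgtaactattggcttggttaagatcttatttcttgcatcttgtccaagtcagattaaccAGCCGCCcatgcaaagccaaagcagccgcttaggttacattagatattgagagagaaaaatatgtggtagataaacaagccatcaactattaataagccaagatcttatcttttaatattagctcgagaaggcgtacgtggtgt
PDF1.5: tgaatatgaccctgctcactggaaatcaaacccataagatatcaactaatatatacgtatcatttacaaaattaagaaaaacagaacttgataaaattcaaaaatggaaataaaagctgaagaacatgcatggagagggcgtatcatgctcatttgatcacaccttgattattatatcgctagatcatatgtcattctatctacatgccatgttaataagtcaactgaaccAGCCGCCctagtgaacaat
PDF1.2c and PDF1.3, which also rose, did not hold these letters in the window, and PDF1.5, which held them, stood at 22.6, 51.6 and 18.7 in Col-0_1 and 14.99, 8.16 and 11.1 in Col-0_2. The box was in 10 of 529 windows of genes at least 2-fold higher (1.89%), PDF1.2 and PDF1.2b among them. It was in 1 of 184 windows of genes at least 2-fold lower (0.543%).

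**Figure D4:**
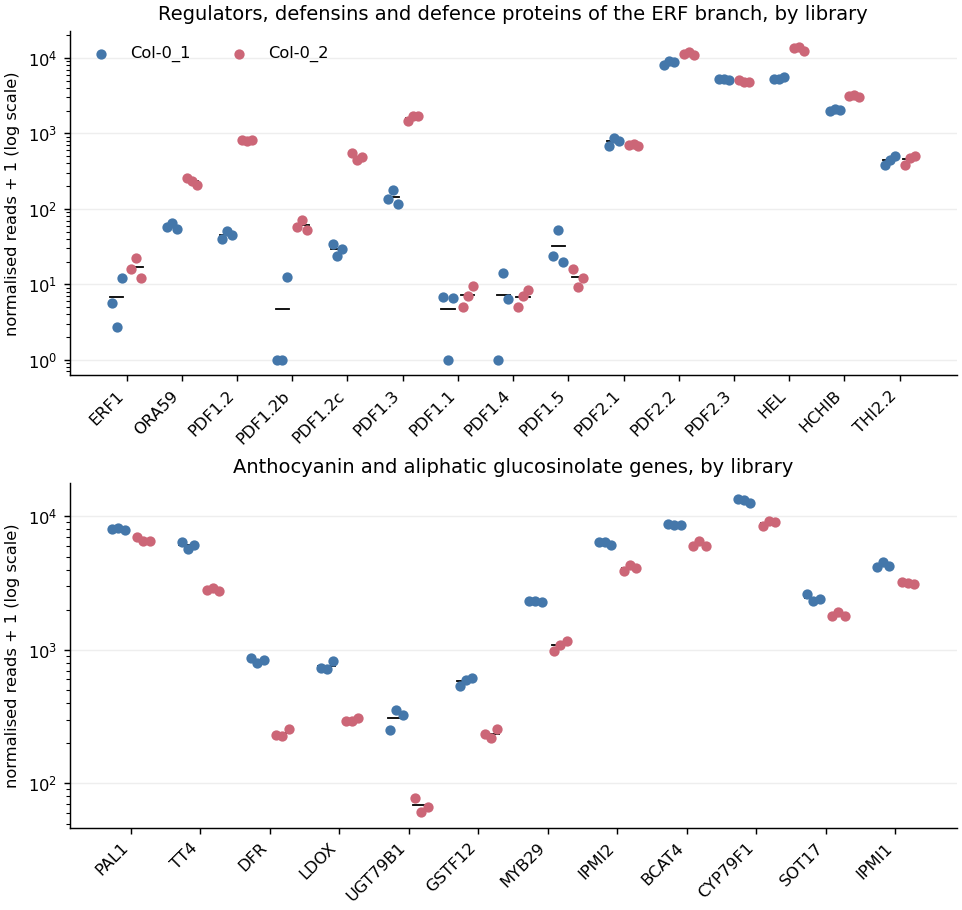
Normalised reads + 1 (y axis, log scale) in each wild-type library for the 15 ERF-branch genes (top) and for 12 anthocyanin and aliphatic glucosinolate genes (bottom), Col-0_1 in blue and Col-0_2 in red, with a black line at each set's mean. PDF1.2, PDF1.2c and PDF1.3 stand about 10 or more times higher in Col-0_2, while DFR and UGT79B1 stand clearly lower.

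Salicylic acid and pattern-immunity genes were in part higher in Col-0_2. In the salicylic acid list 16 of 30 members were higher and 2 lower (median log2 difference 0.34). CBP60G (AT5G26920), a calmodulin-binding factor that activates salicylic acid synthesis, held 117, 132 and 118 in Col-0_1 and 329.6, 366 and 337 in Col-0_2 (1.49 ± 0.071, adjusted p = 5.30e-13, limma). WRKY70 and the lipase-like SAG101 differed by 1.03 ± 0.091 and 0.76 ± 0.067. BGL2 (AT3G57260), also named PR2, a secreted glucanase and late salicylic acid marker, went the other way, at 420.4, 296 and 379.7 in Col-0_1 and 115, 113 and 108 in Col-0_2 (-1.68 ± 0.15). PR1 was not called (-0.71 ± 0.45, adjusted p = 0.29, limma). Among 27 pattern-triggered immunity genes, 12 were higher and none lower. The flagellin receptor FLS2 (AT5G46330) held 1239.7, 1206 and 1088 in Col-0_1 and 2054, 2354 and 2198 in Col-0_2 (0.90 ± 0.063), and NHL3, the receptor-like kinase SOBIR1 and the oxidase RBOHD differed by 1.14 ± 0.061, 0.62 ± 0.044 and 0.40 ± 0.044.

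In the WRKY family 24 of 63 tested genes were higher (38.1%) and 1 lower (1.59%). Of the cysteine-rich receptor-like kinases, which sit at the cell surface, 15 of 39 were higher (38.5%) and 4 lower (10.3%). CRK30 (AT4G11460) held 47.1, 86.5 and 64.7 in Col-0_1 and 424, 533 and 531 in Col-0_2 (2.92 ± 0.19), and CRK12 and CRK5 rose by 2.41 ± 0.17 and 1.77 ± 0.12, while CRK18 and CRK21 were lower by 1.07 and 0.57 on the log2 scale. Indole defence genes split, with 6 of 23 higher (26.1%) and 5 lower (21.7%). The higher ones include MYB51 (1.11 ± 0.062), the regulator of indole glucosinolates, and the myrosinase PEN2 (0.66 ± 0.038). The lower ones include CYP79B2 (-0.36 ± 0.046) and CYP82C4 (-1.80 ± 0.20).

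Jasmonate synthesis and turnover genes were mostly higher, 11 of 19 with 1 lower. Of these, AOS and AOC1, which form the cyclic precursor, differed by 0.34 ± 0.039 and 0.58 ± 0.048, and the catabolic CYP94C1 by 0.99 ± 0.19. JAZ1, a repressor of the pathway that is itself induced by it, held 586, 492 and 421 in Col-0_1 and 946, 906 and 960.2 in Col-0_2 (0.92 ± 0.078), whereas JAZ9 was lower (-0.49 ± 0.063). Wound genes of the MYC branch were called in both directions. MYC2 itself was listed at 0 in all wild-type libraries and was not tested. Of 13 tested, 5 were higher (38.5%) and 3 lower (23.1%). The vegetative storage proteins VSP2 (AT5G24770) and VSP1, the standard markers, were both lower in Col-0_2. VSP2 stood at 10516, 9953 and 8795 in Col-0_1 and 4496, 4488 and 4712 in Col-0_2 (-1.09 ± 0.07, adjusted p = 6.48e-11, limma) and VSP1 at 645, 637 and 639 in Col-0_1 and 298, 354 and 286 in Col-0_2 (-1.04 ± 0.12).

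Clock genes of the morning were lower in Col-0_2. Of 12 tested members 8 were lower and none higher, with a median log2 difference of -0.48. CCA1 (AT2G46830) held 1711, 1666 and 1484 in Col-0_1 and 388, 399 and 423 in Col-0_2, with no overlap between the sets (log2 difference -2.003 ± 0.11, adjusted p = 8.30e-12, limma). Its close partner LHY was not called and overlapped, at 146, 131 and 98.7 in Col-0_1 and 128, 102 and 147 in Col-0_2 (0.0083 ± 0.24, adjusted p = 0.986, limma). The morning MYB factors RVE8 and RVE1 were lower (-0.89 ± 0.17 and -0.95 ± 0.27), while RVE4, RVE2 and RVE7 were not called (-0.15 ± 0.076, 0.064 ± 0.099 and -0.034 ± 0.11). Among the pseudo-response regulators that follow CCA1 through the morning, PRR9 (AT2G46790) held 877, 780.2 and 748 in Col-0_1 and 436, 449 and 454 in Col-0_2 (-0.84 ± 0.20) and PRR7, the later of them, differed by -0.13 ± 0.042. RVE1 (AT5G17300) was not called without Col-0_1 replicate 2 or Col-0_2 replicate 3 (-0.77 to -0.86, adjusted p from 0.0585 to 0.0819, limma), and PRR7 (AT5G02810) was not called without Col-0_1 replicate 2, Col-0_1 replicate 3, Col-0_2 replicate 1, Col-0_2 replicate 2 or Col-0_2 replicate 3 (-0.12 to -0.13, adjusted p from 0.0541 to 0.0862, limma). The coactivators LNK1, LNK2 and LNK3 differed by -0.45 ± 0.062, -0.51 ± 0.068 and -0.84 ± 0.14.

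Of the 14 evening genes 5 were higher and none lower, with a median log2 difference of 0.14. LUX (AT3G46640), of the evening complex, held 2413, 2327 and 2692 in Col-0_1 and 3494, 3526 and 3378 in Col-0_2 (0.49 ± 0.047), FKF1, a blue-light F-box protein, differed by 0.31 ± 0.042, and PRR5, GI and ELF3 by 0.24 ± 0.042, 0.14 ± 0.05 and 0.14 ± 0.044. TOC1 was not called (0.076 ± 0.043, adjusted p = 0.223, limma), nor were PRR3 (0.20), ELF4 (-0.033), BOA (0.071), ZTL (-0.081), LKP2 (0.10), GRP7 (0.17), GRP8 (0.15) and TCP21 (0.13). GI (AT1G22770) was not called without Col-0_1 replicate 1, Col-0_1 replicate 2, Col-0_1 replicate 3, Col-0_2 replicate 1 or Col-0_2 replicate 3 (0.11 to 0.15, adjusted p from 0.0694 to 0.18, limma), and ELF3 (AT2G25930) was not called without Col-0_1 replicate 1, Col-0_2 replicate 2 or Col-0_2 replicate 3 (0.12 to 0.14, adjusted p from 0.0545 to 0.0946, limma). CCA1 averaged 1375 in wrky-qm, 188 in obe1-2 and 226 in wrky-qm_15_hz, so Col-0_1 stood near wrky-qm for this gene and Col-0_2 between wrky-qm and the other mutants.

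**Figure D5:**
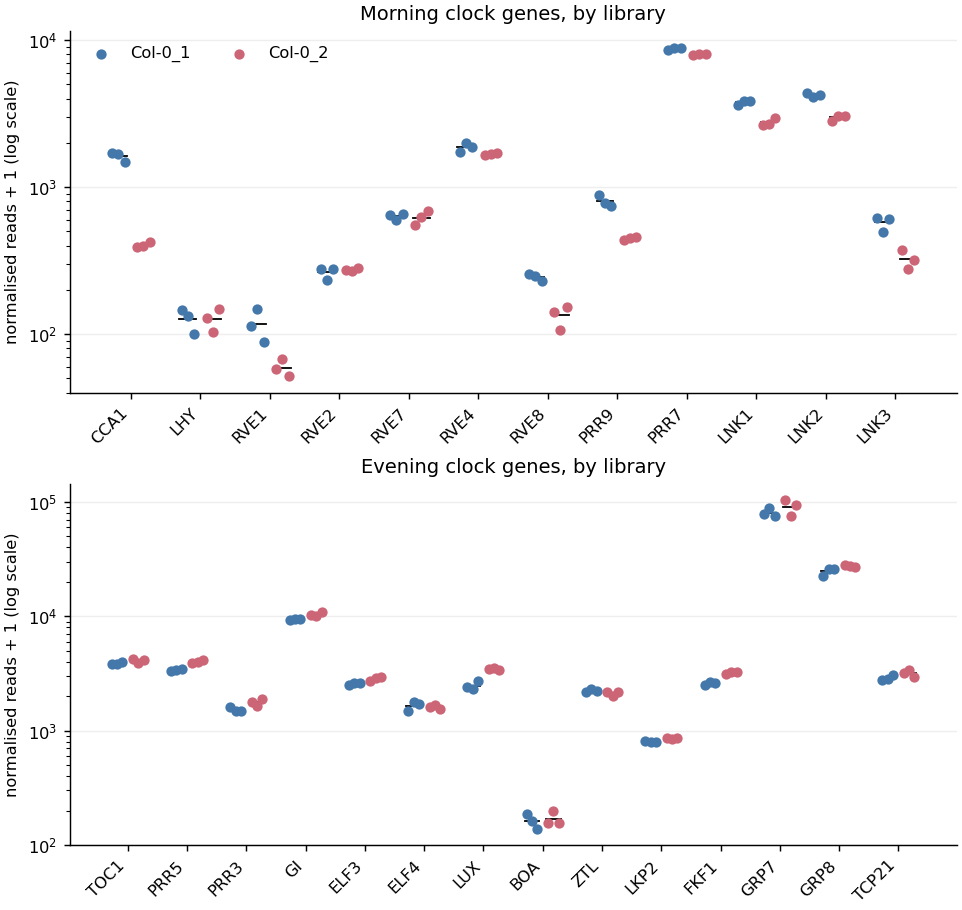
Normalised reads + 1 (y axis, log scale) in each wild-type library for the 12 morning clock genes (top) and the 14 evening clock genes (bottom), Col-0_1 in blue and Col-0_2 in red, with a black line at each set's mean. CCA1 falls from 1484 or more in every Col-0_1 library to 423 or less in every Col-0_2 library, while LHY and TOC1 overlap between the sets.

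Time-of-day motifs were looked for in the same windows. The G box (CACGTG) stood in 7 of the 12 morning genes and in 7.17% of all 22735 windows, and the evening element (AAATATCT, either strand) in 8 of 14 evening genes and 4.94% of all. The windows of 3 genes are printed 5′ to 3′ with the motif in capitals, for the morning genes CCA1 (chr2:19245341-19245590, plus strand) and PRR9 (chr2:19232357-19232606, plus strand), which fell, with the G box, and for the evening gene LUX (chr3:17182792-17183041, plus strand), which rose, with the evening element.
CCA1: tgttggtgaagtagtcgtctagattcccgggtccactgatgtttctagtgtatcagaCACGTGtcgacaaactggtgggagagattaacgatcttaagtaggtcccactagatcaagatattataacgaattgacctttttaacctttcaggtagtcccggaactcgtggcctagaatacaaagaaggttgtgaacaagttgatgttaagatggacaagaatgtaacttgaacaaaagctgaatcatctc
PRR9: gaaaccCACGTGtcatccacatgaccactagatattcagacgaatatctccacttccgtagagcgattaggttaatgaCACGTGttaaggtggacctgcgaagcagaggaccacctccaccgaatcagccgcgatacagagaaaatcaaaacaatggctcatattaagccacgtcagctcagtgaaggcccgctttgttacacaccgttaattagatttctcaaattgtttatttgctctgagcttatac
LUX: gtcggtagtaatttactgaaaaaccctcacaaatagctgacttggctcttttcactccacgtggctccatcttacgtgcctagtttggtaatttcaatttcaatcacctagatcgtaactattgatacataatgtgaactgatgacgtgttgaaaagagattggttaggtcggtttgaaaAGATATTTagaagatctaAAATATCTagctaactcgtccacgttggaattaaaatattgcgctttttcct
The evening element was in 7.23% of the windows of all genes higher in Col-0_2 and in 4.91% of those lower, and the G box in 7.41% and 9.53%. Not all carriers moved. Among the morning genes LHY and RVE2 hold a G box without a call. Among the evening genes TOC1, ELF4, BOA, GRP7 and GRP8 hold an evening element without a call, and the called carriers were PRR5, LUX and FKF1 only. Other motifs searched were CGCGTT, the rapid stress element bound by CAMTA factors (2.74% of all windows, 3.53% of those higher, none of the 38 early stress regulators), the W boxes TTGACC and TTGACT (either in 28.5% of all windows, 32.3% of those higher and 12 of the 38), and the CCA1 site AAAAATCT (6.64% of all, 6.96% of those higher). Within the touch list CGCGTT occurred in CML24, with 4 matches, and CML23, with 1. The CML24 matches were counted on both strands and overlap in pairs within the palindrome AACGCGTT. These shares describe letters in a window and no binding was measured.

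Light-output genes were called often in both directions, 9 of 30 higher (30%) and 13 lower (43.3%). Lower in Col-0_2 were COL2 (-1.19 ± 0.15), the early light-induced proteins ELIP1 (-1.13 ± 0.21) and ELIP2 (-1.14 ± 0.41), the B-box factors BBX18 (-1.203 ± 0.17) and BBX25 (-1.02 ± 0.17), and SPA3 (-0.66 ± 0.075), a repressor of light signalling. Higher were the shade marker PIL1 (1.31 ± 0.29), the photoreceptor PHYA (0.36 ± 0.038), PIF3 (0.43 ± 0.05), and the BTB proteins BT4 (0.65 ± 0.047) and BT2 (0.62 ± 0.053). HY5, a central light factor, was not called (-0.11 ± 0.14).

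Anthocyanin and flavonoid genes were lower in Col-0_2, 13 of 27 with 1 higher and a median log2 difference of -0.51. Called members ran from the entry of the pathway to the decoration of the finished pigment. F3H, another member, stayed under the minimum mean in both sets and was not tested. TT4 (AT5G13930), chalcone synthase at the entry of the pathway, held 6403, 5738 and 6124 in Col-0_1 and 2829, 2888 and 2783 in Col-0_2 (-1.102 ± 0.069, adjusted p = 5.02e-11, limma). DFR (AT5G42800), the first anthocyanin-specific enzyme, held 871, 793 and 837 in Col-0_1 and 229.7, 226 and 254 in Col-0_2 (-1.81 ± 0.12, adjusted p = 7.71e-11, limma). LDOX, the next enzyme, and GSTF12, which carries the pigment to the vacuole, differed by -1.35 ± 0.13 and -1.31 ± 0.18. UGT79B1 (AT5G54060), a glycosyltransferase that decorates anthocyanins, held 249, 352 and 327 in Col-0_1 and 76.9, 60.1 and 65.6 in Col-0_2 (-2.17 ± 0.23). PAL1, at the head of the phenylpropanoid route, differed by only -0.27 ± 0.036. Of the MYB activators, PAP1 (AT1G56650) was lower (-0.86 ± 0.29), whereas PAP2 (AT1G66390, 0.88 ± 0.59) and MYB113 (-1.62 ± 0.66) were not called.

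Aliphatic glucosinolate genes were lower as a block, with 14 of 16 members called lower, none higher, and all 16 differences below 0 (median -0.33). MYB29 (AT5G07690), an activator of the pathway, held 2331, 2331 and 2283 in Col-0_1 and 982, 1083 and 1170.5 in Col-0_2 (-1.105 ± 0.099, adjusted p = 1.47e-08, limma). Among the enzymes, CYP79F1, which forms the aldoxime from chain-elongated methionine, held 13479.9, 13299 and 12680.4 in Col-0_1 and 8465, 9163 and 9051 in Col-0_2 (-0.57 ± 0.068), and BCAT4, IPMI2, IPMI1 and SOT17 differed by -0.49 ± 0.057, -0.63 ± 0.059, -0.44 ± 0.055 and -0.41 ± 0.051. The members without a call were MAM3 (-0.14) and BAT5 (-0.26). All 3 Col-0_2 libraries lay below all 3 of Col-0_1 in each of the 16 members, beside 19.1% of all genes tested.

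Photosynthesis genes of the nucleus were slightly lower, 27 of 52 called lower and 3 higher, with a median log2 difference of -0.18 and no member 2-fold different. LHCA6, an antenna protein of photosystem I, differed by -0.67 ± 0.064, the Calvin cycle dehydrogenase GAPB by -0.47 ± 0.054 and plastocyanin PETE1 by -0.36 ± 0.045. LHCB1.1 was lower (-0.44 ± 0.053) while LHCB1.4 was higher (0.57 ± 0.044). The LHCB1 and RBCS genes are near-identical copies whose reads may be shared, so the split within each family is uncertain. CAT2 (AT4G35090), the leaf catalase that removes peroxide from photorespiration, was lower, at 20028, 20115 and 19953 in Col-0_1 and 10550.2, 10673 and 9793 in Col-0_2 (-0.96 ± 0.038, adjusted p = 2.43e-14, limma), and CAT3 (AT1G20620), the catalase that peaks in the evening, held 200419, 195652 and 196440.4 in Col-0_1 and 288275, 310786 and 303711 in Col-0_2 (0.61 ± 0.054).

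Cell division genes had a median log2 difference of -0.24, with 9 of 35 called lower (25.7%) and none higher. Among the called members, the replication helicase subunits MCM4, MCM5, MCM7 and MCM2 differed by -0.41 ± 0.062, -0.45 ± 0.077, -0.36 ± 0.064 and -0.26 ± 0.073, the clamp PCNA1 by -0.41 ± 0.10, and the cyclin CYCD3;1 by -0.24 ± 0.06. MCM2 (AT1G44900) was not called without Col-0_1 replicate 2 (-0.20, adjusted p = 0.083, limma). The count was 21 when the spread was taken from the 6 wild-type libraries alone and 15 after quantile normalisation. Of 34 meristem and vascular genes 5 were lower (14.7%, beside 10.1% over all genes) and none higher, among them PHB, a leaf polarity factor (-0.50 ± 0.059), and MP, an auxin response factor (-0.41 ± 0.079).

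Sugar starvation genes were higher in 18 of 31 cases with 1 lower. MIOX2 (AT2G19800), an inositol oxygenase, held 471, 527 and 464 in Col-0_1 and 1531, 1524 and 1655 in Col-0_2 (1.69 ± 0.056, adjusted p = 1.32e-15, limma), and SEN1 (AT4G35770), also named DIN1, held 731, 753 and 683 in Col-0_1 and 2212, 1946 and 2327 in Col-0_2 (1.58 ± 0.063). The glutamate dehydrogenase GDH2 and the dark-induced DIN10 differed by 0.50 ± 0.037 and 0.55 ± 0.037. The senescence list, which shares SEN1 with it, was higher in 11 of 18 with 1 lower. The NAC factor ORE1, a driver of leaf ageing, held 208, 187 and 172 in Col-0_1 and 475, 486 and 446 in Col-0_2 (1.31 ± 0.096), while SAG29 was lower (-0.82 ± 0.09).

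Low-oxygen genes were higher in 14 of 17 cases and lower in none, with a median log2 difference of 0.60. ADH1 (AT1G77120), alcohol dehydrogenase, held 5766, 6350.2 and 6231 in Col-0_1 and 13145, 13760.4 and 13298 in Col-0_2 (1.13 ± 0.047, adjusted p = 4.27e-14, limma), PDC1, pyruvate decarboxylase, held 3735, 3989 and 3966 in Col-0_1 and 7326, 7808 and 7667 in Col-0_2 (0.96 ± 0.065), and the haemoglobin HB1 differed by 0.57 ± 0.063. The factor RAP2.2, which is stabilised at low oxygen, differed by 0.68 ± 0.036. PDC1 averaged 821 in wrky-qm, 189 in obe1-2 and 2602 in wrky-qm_15_hz, all below both wild-type sets.

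In the cold list 11 of 22 were higher (50%) and 3 lower (13.6%). The regulator CBF2 (AT4G25470) held 199, 149 and 154 in Col-0_1 and 608, 664 and 566 in Col-0_2 (1.88 ± 0.19, adjusted p = 8.66e-08, limma), and CBF1 and DDF1, its relatives, rose by 2.22 ± 0.29 and 2.21 ± 0.50, whereas CBF3 was not called (0.16 ± 0.28). The targets RD29A (AT5G52310) and COR47 held 20431, 20276 and 20629 in Col-0_1 and 35979, 35184 and 35839 in Col-0_2 (0.80 ± 0.034) and 17818, 18189 and 17292 in Col-0_1 and 36180.4, 34191 and 34132 in Col-0_2 (0.97 ± 0.04). COR15A and COR15B, also targets, were lower (-0.21 ± 0.066 and -0.52 ± 0.14), and so was GolS1 (-0.94 ± 0.083). Abscisic acid and drought genes showed 13 higher (35.1%) and 8 lower (21.6%) of 37. Of 9 proline genes 5 were higher (55.6%) and 2 lower (22.2%). P5CS1 (AT2G39800), which catalyses the limiting step of proline synthesis in stress, was lower in Col-0_2, at 35009, 33952 and 34568 in Col-0_1 and 18409, 18688 and 18892 in Col-0_2 (-0.89 ± 0.035, adjusted p = 2.43e-14, limma), and so was P5CR, the next enzyme of synthesis (-0.29 ± 0.043). The other synthase gene, P5CS2, was higher (0.18 ± 0.038), as were the catabolic proline dehydrogenase ERD5 (0.59 ± 0.044) and the transporter PROT2 (0.44 ± 0.077).

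Nutrient lists differed in their balance. Phosphate starvation genes were higher in 14 of 27 cases and lower in 1, with the phosphatase PAP17 at 1801, 1915 and 1617 in Col-0_1 and 3218, 3218 and 3180.0 in Col-0_2 (0.85 ± 0.062) and the RNase RNS1 at 79.9, 62.4 and 84.2 in Col-0_1 and 215, 182 and 269 in Col-0_2 (1.54 ± 0.21). Iron genes were higher in 7 (23.3%) and lower in 11 (36.7%) of 30. The root uptake genes IRT1 (AT4G19690) and FRO2, the transporter and the ferric reductase, held 793, 813 and 722 in Col-0_1 and 307, 325 and 286 in Col-0_2 (-1.34 ± 0.13) and 501, 455 and 403 in Col-0_1 and 159.8, 174 and 181 in Col-0_2 (-1.39 ± 0.10), and the chloroplast reductase FRO7 was lower (-1.13 ± 0.082). FER1, a ferritin that stores iron, was higher at 4285, 4458 and 4402 in Col-0_1 and 7957, 7958 and 7722 in Col-0_2 (0.85 ± 0.059). In the nitrate list 8 of 20 were higher (40%) and 3 lower (15%). The glutamine synthetase GLN1;1 and the transporter NRT1.1 were higher (0.93 ± 0.038 and 0.61 ± 0.036), and the high-affinity transporter NRT2.1 was lower (-0.74 ± 0.062). In the sulfur and copper list 6 of 21 were higher and 7 lower, with the reductase APR3 at 0.40 ± 0.046 and the sulfate transporter SULTR2;1 at -0.54 ± 0.036. The sulfur and copper shares were thus 28.6% higher and 33.3% lower. Starch and sugar synthesis genes split 7 to 7 among 26 (26.9% each).

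Among growth hormones, auxin response genes were higher in 14 of 36 cases (38.9%) and lower in 1 (2.78%). IAA7 and IAA19, repressors induced by auxin, differed by 0.55 ± 0.045 and 0.86 ± 0.16, the conjugating enzyme GH3.3 held 247, 294 and 278 in Col-0_1 and 500.4, 557 and 571 in Col-0_2 (0.99 ± 0.096), and the carrier PIN7 differed by 0.45 ± 0.049. Cytokinin genes had 3 of 22 higher and 3 lower (13.6% each), near the shares over all genes (14.4% and 10.1%). Gibberellin and brassinosteroid genes had 7 of 30 higher (23.3%) and 1 lower (3.33%). The xyloglucan hydrolases, which loosen the wall, were higher in 11 of 28 cases (39.3%) and lower in 2 (7.14%). XTH4 (AT2G06850) held 6427, 6142 and 6257 in Col-0_1 and 14634, 15139 and 14520.3 in Col-0_2 (1.23 ± 0.042, adjusted p = 2.51e-15, limma). Expansins, other wall-loosening proteins, showed 4 higher and 6 lower of 22: the low EXPA16 rose by 2.21 ± 0.21, while EXPA1 and EXPA10 were lower (-0.31 ± 0.037 and -0.55 ± 0.059).

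The markers of cell types are given by their summed level. The 6 root hair markers summed to 2992 to 3116 reads in the Col-0_1 libraries and 2895 to 3128 in those of Col-0_2, and the 8 endodermis and suberin markers to 2730.0 to 2996 and 2625 to 3094, with no member called in either group. No stomatal marker was called, with sums of 2452 to 2634 and 2239.8 to 2348, and no root meristem marker, with sums of 2383 to 2633 and 2269 to 2343, although in both the Col-0_2 sums lay below all Col-0_1 sums. The 6 leaf photosynthetic markers summed to 1338400 to 1533785 in Col-0_1 and 1242140 to 1268138 in Col-0_2, with 3 members lower. The 5 vascular markers summed to 15136 to 15769.9 and 13283 to 13671, with 1 lower, and the 3 root triterpene genes to 1439 to 1597 and 1916 to 1999, with 2 higher. In RNA from whole seedlings, fewer cells of a type and less RNA per cell cannot be told apart.

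Some markers of seeds and flowers stood higher in Col-0_2. Of 9 embryo and seed markers, 4 were tested and 3 called higher. The sum went from 20.9 to 24.2 reads in the Col-0_1 libraries to between 370.5 and 478 in those of Col-0_2, and most of it was CRA1. SESA2 and SESA3 were at 0 in all 6, and CRB, SESA1 and SESA5 stayed under the minimum mean and were not tested. CRA1 (AT5G44120), a cruciferin storage protein, held 17.1, 23.3 and 13.5 in Col-0_1 and 409.5, 351 and 312 in Col-0_2 (4.27 ± 0.18, adjusted p = 8.43e-14, limma). CRC, another cruciferin, was listed at 0 in all Col-0_1 libraries and at 52.9, 43.7 and 36.8 in Col-0_2. The beta-glucosidase BGLU19 (AT3G21370) held 2.85, 0.868 and 3.70 in Col-0_1 and 94.9, 109.8 and 100.8 in Col-0_2 (4.99 ± 0.28). The oil-body proteins OLEO1 and OLEO2 were low and higher in Col-0_2 (2.73 ± 0.58 and 3.48 ± 0.52), while OLE3 was lower at 79.9, 76.7 and 71.0 in Col-0_1 and 34.0, 43.7 and 53.0 in Col-0_2 (-0.81 ± 0.21). Of 14 late embryogenesis and embryo genes 3 were higher (21.4%, beside 14.4% over all genes) and 1 lower (7.14%, beside 10.1%). The peroxiredoxin PER1 stood at 7.61, 6.43 and 7.30 in Col-0_1 and 64.9, 75.2 and 64.7 in Col-0_2 (3.09 ± 0.28).

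The 5 flower markers, 2 of them called higher, summed to 358 to 446 reads in Col-0_1 and 1159.9 to 1314 in Col-0_2. SEP3 (AT1G24260), a MADS-box factor of floral organs, made up most of this, at 370.5, 314 and 401 in Col-0_1 and 1125, 1192 and 1093 in Col-0_2 (1.65 ± 0.17, adjusted p = 9.66e-08, limma). AP3 differed by 1.55 ± 0.40. AG was not called (1.06 ± 0.60), and neither were the other markers, AP1 and PI. In the list of flower genes, with 6 tested, 4 differences lay above 0 and 2 below. AP3 (AT3G54340) was not called without Col-0_2 replicate 2 (1.204, adjusted p = 0.0549, limma). The part of these markers in the other differences was not tested.

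Of 22 heat shock genes 2 were higher (9.09%, beside 14.4% over all genes) and 2 lower (9.09%, beside 10.1%), among them the heat shock factor HSFA7A (0.99 ± 0.21). HSP101 (-0.051 ± 0.10) and HSP90.1 (-0.15 ± 0.087), the standard heat markers, were not called. Of 21 genes of folding in the endoplasmic reticulum 2 were higher (9.52%) and 4 lower (19%), with BIP2 at -0.26 ± 0.04. In the list of oxidative and mitochondrial stress 6 of 25 were higher (24%) and 8 lower (32%), with the blue copper protein BCB at 1.19 ± 0.086 and NDA1 at -0.70 ± 0.099.

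Of 191 cytochrome P450 genes 40 were higher (20.9%, beside 14.4% over all genes) and 28 lower (14.7%, beside 10.1%), among them CYP71B23 (1.41 ± 0.066) and CYP706A1 (1.29 ± 0.048). Of 48 UDP-glycosyltransferase genes 11 were higher (22.9%) and 6 lower (12.5%), with UGT72E1 at 0.62 ± 0.036. Of 25 tau-class glutathione transferases 1 was higher (4%) and 4 lower (16%), with GSTU5 at -0.65 ± 0.05. Among the genes mutated in the series, WRKY11, WRKY15, WRKY7 and OBE2 were higher in Col-0_2 (0.36 ± 0.062, 0.34 ± 0.067, 0.22 ± 0.057 and 0.17 ± 0.045) and WRKY17 was lower (-0.27 ± 0.096), all by less than 0.4. WRKY21, WRKY39 and OBE1 were not called (-0.029 ± 0.076, -0.041 ± 0.064 and 0.22 ± 0.16). WRKY17 (AT2G24570) was not called without Col-0_1 replicate 1, Col-0_1 replicate 2, Col-0_2 replicate 1, Col-0_2 replicate 2 or Col-0_2 replicate 3 (-0.20 to -0.30, adjusted p from 0.0564 to 0.198, limma).

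Single genes outside the lists gave some of the firmest and largest differences. The smallest p-values among higher genes were those of AT1G27020, annotated with no function, at 1254, 1253 and 1347 in Col-0_1 and 6285, 6193 and 5954 in Col-0_2 (2.26 ± 0.041, adjusted p = 5.87e-20, limma), and, after CAF1A, of the legume-type lectin AT3G15356, at 356, 368 and 389 in Col-0_1 and 1804, 1953 and 2001 in Col-0_2 (2.37 ± 0.051). Of the lower genes, SQP1 (AT5G24150), annotated as an FAD/NAD(P)-binding oxidoreductase, held 2685, 2528 and 2557 in Col-0_1 and 582, 672 and 634 in Col-0_2 (-2.04 ± 0.09, adjusted p = 1.20e-13, limma), and AT4G33550, of the lipid-transfer protein superfamily, held 1521, 1642 and 1612 in Col-0_1 and 516, 543 and 504 in Col-0_2 (-1.61 ± 0.077). RTFL12 (AT4G13395), a small peptide of the ROTUNDIFOLIA family, was among the largest rises at 5.71, 7.48 and 1.70 in Col-0_1 and 103, 99.7 and 98.9 in Col-0_2 (4.24 ± 0.35), as was the precursor of the microRNA MIR841b, which was low at 8.64, 0.804 and 5.49 in Col-0_1 and 59.9, 44.9 and 80.0 in Col-0_2 (3.66 ± 0.49).

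The largest falls were in genes annotated as uncharacterized. AT2G10965 was listed at 96.8, 82.7 and 116 in Col-0_1 and at 0 in all libraries of Col-0_2 and of the 3 mutants. AT3G01345 held 423, 416 and 469 in Col-0_1 and 9.99, 1.05 and 6.49 in Col-0_2 and averaged 3.19 in wrky-qm, 14.3 in obe1-2 and 15.7 in wrky-qm_15_hz, so Col-0_1 stood apart from all other groups for both genes. The peroxidase-family gene AT1G49570 held 736, 766 and 833 in Col-0_1 and 81.9, 70.2 and 77.7 in Col-0_2 (-3.33 ± 0.31, adjusted p = 2.89e-08, limma) and AT2G15020 758, 763 and 702 in Col-0_1 and 115, 132 and 142 in Col-0_2 (-2.51 ± 0.47). Of the genes kept, 364 were at 0 in all Col-0_1 libraries and 248 in all Col-0_2 libraries, and of these AT2G10965 alone reached a mean of 50 in the other set. Among them, CRC had the highest mean of those at 0 in Col-0_1. The cupin gene AT3G05950 was listed at 19.9, 25.02 and 22.8 in Col-0_1 and at 0 in Col-0_2.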

How the data were processed

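Seedling total RNA, isolated with TRIzol, gave paired-end reads of 150 bp on an Illumina NovaSeq instrument, per the labels' protocols. The submitters' processing notes name bcl2fastq, HISAT2, edgeR and build TAIR10, without roles or versions. Strandedness is not given in the sources used here. The deposited signal values, 1 per gene and library, are never negative and not whole; from the values they look like counts moved by the authors to a common library size. Their original depth is unknown, so no count test was run.

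Values under 1e-06 were set to 0. Genes whose mean reached 1 in a wild-type set were fitted as log2(value + 1) with limma-trend (limma 3.58.1, R 4.3.3) over 15 libraries in 5 groups, two-sided, with Benjamini-Hochberg adjustment over 23991 genes and a threshold of 0.05. The fit was tested on simulated data.

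Loci were named from RefSeq's TAIR10.1 annotation, in which all 32548 matched. The table gives no coordinates; sequences and positions printed are TAIR10.1's own. Of 1107 entries in 45 lists, 1035 matched 1 gene, and 11 families were taken by symbol; lists share members. The members and lists were chosen with earlier results of these data known, 14 identities were corrected and the motifs chosen after values were seen. Named genes are the 8 largest called differences in each direction (mean of 50 or more), the 4 smallest p-values, 4 at 0 in 1 set, up to 6 called members per list, and all touch, clock, ERF-branch and mutated genes; other genes named were picked after their values were seen. In lists with fewer than 3 called members, the 3 largest differences were taken.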

Additional observations from a re-analysis of the deposited data

How the results depend on the processing

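The number of genes differing lay between 5263 and 6871 under the 11 other settings of pseudocount, filter, scaling, variance model and block, and between 4901 and 5177 without each wild-type library in turn (2926 to 3126 higher, 1928 to 2051 lower), beside 5879. With the spread of the 6 wild-type libraries alone 6871 genes differed, and after quantile normalisation 6376, of which 52.4% were higher beside 58.8%. Scalings moved the median of all genes by 0.026 or less on the log2 scale. A minimum mean of 50 left 335 genes at least 2-fold higher and 94 at least 2-fold lower, since fewer low genes were tested. Cell division genes lower in Col-0_2 numbered 21 with the 6 libraries alone and 15 after quantile normalisation, beside 9; the cause was not tested. Of 5682 values of the 336 named genes under these settings, 134 lost the call and 23 gained it. None that was called in the main fit or under the other setting changed direction. Sign changes of genes without a call in both were not counted. Adding the replicate number as a block gave 5757 genes, 3387 higher and 2370 lower, with same-numbered libraries correlating at -0.035, 0.024 and -0.0063 over 18364 genes, so the numbers do not pair the sets. Depth behind the normalised values is unknown, and the median spread between libraries of genes with means of 10 to 100 was 25.4% and 23.8%; it was not summarised for lower genes.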

Other observations

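QQS (AT3G30720), a regulator of starch and protein content known from Arabidopsis, held 118, 84.5 and 99.4 in Col-0_1 and 908, 850.4 and 782 in Col-0_2 (3.07 ± 0.15, adjusted p = 7.06e-13, limma), with means of 242 in wrky-qm, 75.7 in obe1-2 and 1425 in wrky-qm_15_hz. HSPRO2 (AT2G40000), a defence gene related to a nematode resistance gene of beet, held 1053, 1041 and 1002 in Col-0_1 and 3054, 3071.9 and 3232 in Col-0_2 (1.59 ± 0.043). Both genes were picked after their values were seen.

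The wild-type difference was also set beside a contrast that shares no library with it, the mean of wrky-qm_15_hz and obe1-2 minus wrky-qm, added after the data were seen. Of the 3458 genes higher in Col-0_2, 72.8% were above 0 in that contrast, and of the 2421 lower genes, 77.2% were below 0, beside 44% above and 55% below over all 23991 genes tested. Among genes at least 2-fold different between the wild-type sets the shares were 71.6% and 75.9%. The libraries of Col-0_1 and wrky-qm store genes as 2.8e-17 and those of Col-0_2, wrky-qm_15_hz and obe1-2 do not, and in this contrast the genotypes cannot be told apart from whatever that storage marks.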
